A study of Rattus norvegicus with 4 samples.

Results

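The miR-29 family was followed through its 3 guide arms, rno-miR-29a-3p, rno-miR-29b-3p and rno-miR-29c-3p, which are 3 of the 758 mature rat miRNAs on an Agilent single-colour array. They were taken by name from the non-control spots of the scanner files, and each had 2 probes with 8 spots apiece, so 16 spots on every array. RNA of extracellular vesicles, small membrane particles shed by cells, was measured on 4 arrays in 2 groups of 2. All vesicles came from cultured bone-marrow-derived macrophages of male wild-type Sprague-Dawley rats that arrived at 6 weeks of age, had knee surgery at 8 weeks and gave femur and tibia marrow 8 weeks later. Cells carrying CD45 and CD11b, surface proteins of leukocytes and of myeloid cells, were sorted, and 20 ng/mL M-CSF was given to day 7 of culture. The M0_sham group (n = 2) held vesicles of these resting M0 macrophages from sham-operated rats. The M1_OA group (n = 2) held vesicles of macrophages from rats whose right knee had been made unstable by destabilisation of the medial meniscus and transection of the anterior cruciate ligament, a model of osteoarthritis (OA). The M1_OA cells were further given 100 ng/mL lipopolysaccharide (LPS) with interferon-γ at 20 ng/mL over 48 hours, followed by 5 mM ATP for 60 minutes, the treatment that makes M1, or inflammatory, macrophages. Surgery, polarisation and ATP therefore changed together, and the marrow cells stand in the study for macrophages of the joint lining, which were not themselves measured. Whether the replicates are separate animals or cultures is not stated in the labels, and the p-values below cover the spread between arrays alone, which may be technical.

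miRNAs are short RNAs that guide Argonaute proteins to messenger RNAs, mostly through pairing of bases 2 to 8, the seed, and lower the output of those messages. The miR-29 guide arms share a seed and are best known for repressing collagens, elastin, fibrillin and other genes of the extracellular matrix, and for falling in fibrosis. In cartilage and joint tissue they have also been studied in OA, and in macrophages they have been linked to inflammatory signalling. The 3 arms come from 4 hairpins in 2 clusters, so each cluster yields miR-29b-3p beside either miR-29a-3p or miR-29c-3p.

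The mature sequences are given first because the members differ by so few bases that the probes decide what can be told apart. They are RefSeq's on the rat build GRCr8, 5′ to 3′, with the seed in capitals, and all 3 members matched that table.
miR-29a-3p: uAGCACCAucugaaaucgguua
miR-29b-3p: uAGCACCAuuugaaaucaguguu
miR-29c-3p: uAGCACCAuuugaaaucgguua
The seed AGCACCA was held by these 3 names and no other among the 693 mature rat names of the table, in which 685 of the 758 array miRNAs were found. miR-29a-3p lies at chr4:60617968-60617989 on the minus strand, within the Mir29a hairpin of 88 bases. miR-29b-3p has 1 copy beside it at chr4:60618342-60618364 on the minus strand (Mir29b1) and an identical copy at chr13:109098882-109098904 on the plus strand (Mir29b2). miR-29c-3p lies at chr13:109099412-109099433 on the plus strand (Mir29c). The Mir29a and Mir29b1 hairpins are separated by 291 bases and those of Mir29b2 and Mir29c by 447, so 1 signal of miR-29b-3p can come from either cluster. Counted from the 5′ end, miR-29c-3p differs from miR-29a-3p by the single substitution C10U. miR-29b-3p differs from miR-29a-3p by C10U, G18A, U21G and A22U, and is 23 bases long against 22.

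The array's probes are DNA complements of the arms, and the 6 probe sequences are shown as deposited because the result below rests on 1 of them. For miR-29a-3p the capital marks the base by which the longer probe extends the shorter. For miR-29b-3p and miR-29c-3p capitals mark the bases that do not pair with miR-29a-3p.
miR-29a-3p, 19 bases: taaccgatttcagatggtg
miR-29a-3p, 20 bases: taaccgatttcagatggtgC
miR-29b-3p, 21 bases: AACacTgatttcaAatggtgc
miR-29b-3p, 22 bases: AACacTgatttcaAatggtgct
miR-29c-3p, 21 bases: taaccgatttcaAatggtgct
miR-29c-3p, 22 bases: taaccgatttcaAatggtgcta
The 20-base miR-29a-3p probe can pair with all of its 20 bases to miR-29a-3p, with 19 to miR-29c-3p and with 16 to miR-29b-3p. The 21-base and 22-base miR-29c-3p probes can pair with miR-29a-3p over 20 and 21 bases, and the miR-29b-3p probes over 16 and 17. None of the 6 probes holds CTCC, the probe motif that 1 of the alternative scalings leaves out.

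miR-29a-3p was seen in the M1_OA vesicles and not in the M0_sham vesicles, while miR-29b-3p and miR-29c-3p were seen in neither. Signals here are processed intensities, background-subtracted by the scanner software in arbitrary units, so values below 0 occur. A spot was well above background where the software says so, and a miRNA counted as such on an array where the share of such spots among a probe's unmarked spots passed 0.5 for at least 1 probe. miR-29a-3p met this on M1_OA replicates 1 and 2 and on no M0_sham array. Its 2 probes summed to signals of 25.7 and 16.9 on M1_OA replicates 1 and 2, and to 0.828 and -4.10 on M0_sham replicates 1 and 2. The M1_OA signals thus lay above both M0_sham signals, although the weaker of them lay close to that array's lowest signal of any miRNA well above background, 14.6. The scanner software's own total gene signal was 26.0 with an error of 3.09 and 17.0 with an error of 2.45 on the M1_OA arrays. On the M0_sham arrays it was 0.1, the software's minimum, and miR-29a-3p was listed as not detected there.

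The whole signal came from the 20-base probe. On M1_OA replicate 1 its 8 spots ran from 24.6 to 28.4, with a mean of 26.9 ± 1.51 (SD over spots), and all 8 were well above background. On M1_OA replicate 2 they ran from 6.60 to 27.8, with a mean of 20.2 ± 6.94, and 7 of the 8 were well above background. The spots of 1 array are repeat readings of 1 sample, so these SDs are technical. On M0_sham replicate 1 the 8 spots ran from -0.778 to 4.23 and on replicate 2 from -2.40 to 3.66, and 0 of them were well above background. The M0_sham spots therefore did not reach the lowest M1_OA spot, and on M1_OA replicate 2 the spots spread far more than on replicate 1. By position on the slide, chosen after the values were seen, the 4 spots in rows 98 to 126 of M1_OA replicate 2 had a mean of 25.5 and the 4 nearer an edge a mean of 14.9. On M1_OA replicate 1 the same positions had means of 26.0 and 27.8. On the M0_sham arrays, where no spot was well above background, they had means of 1.25 and 1.00 on replicate 1 and of 1.38 and -1.42 on replicate 2. The spots nearer an edge were thus lower without overlap on both arrays numbered replicate 2, and the part of position in the result was not tested.

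The 19-base probe, which lacks the single base opposite position 3 of miR-29a-3p, had 0 spots well above background on any array. Its spots ran from -8.88 to 7.40 on M1_OA replicate 1 and from -6.73 to 0.249 on replicate 2. On the M0_sham arrays they ran from -3.07 to 1.98 and from -6.57 to -0.461. Its arrays overlapped, and used alone it left miR-29a-3p at the floor on all 4 arrays. A split by the flag alone was common, which does not make a shorter probe without any rise common. The 40 tested miRNAs with 2 probes all had probes that differ in length by 1 base. On M1_OA replicate 1, 20 of the 40 had 1 probe of the pair well above background. For 18 of these it was the longer. On M1_OA replicate 2 the counts were 18 and 15. Both probes were well above background for 19 and 21 of the 40 on those arrays. These are counts of the flag, and a shorter probe without it could still be higher on the M1_OA arrays. That of miR-34a-5p had means of 11.2 and 10.8 on the M1_OA arrays and of -0.752 and -3.16 on the M0_sham arrays. The 19-base miR-29a-3p probe showed no such rise, at -1.23 and -3.31 against 0.346 and -3.87. Nor did the shorter miR-92a-3p probe, at -0.884 and -1.86 against 0.503 and -1.02. The longer miR-92a-3p probe, however, already had means of 9.70 and 8.11 on the M0_sham arrays. Those of miR-30c-2-3p and miR-494-3p also had shorter partners without such a rise. The shorter miR-27a-3p probe did rise, with 5.33 and 1.46 against -0.811 and -3.39. So did that of miR-331-3p, with 4.46 and 0.926 against -1.95 and -1.17. In most of the 40 pairs both M1_OA means of the shorter probe lay above both its M0_sham means, unlike those of the 19-base probe.

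**Figure D1:**
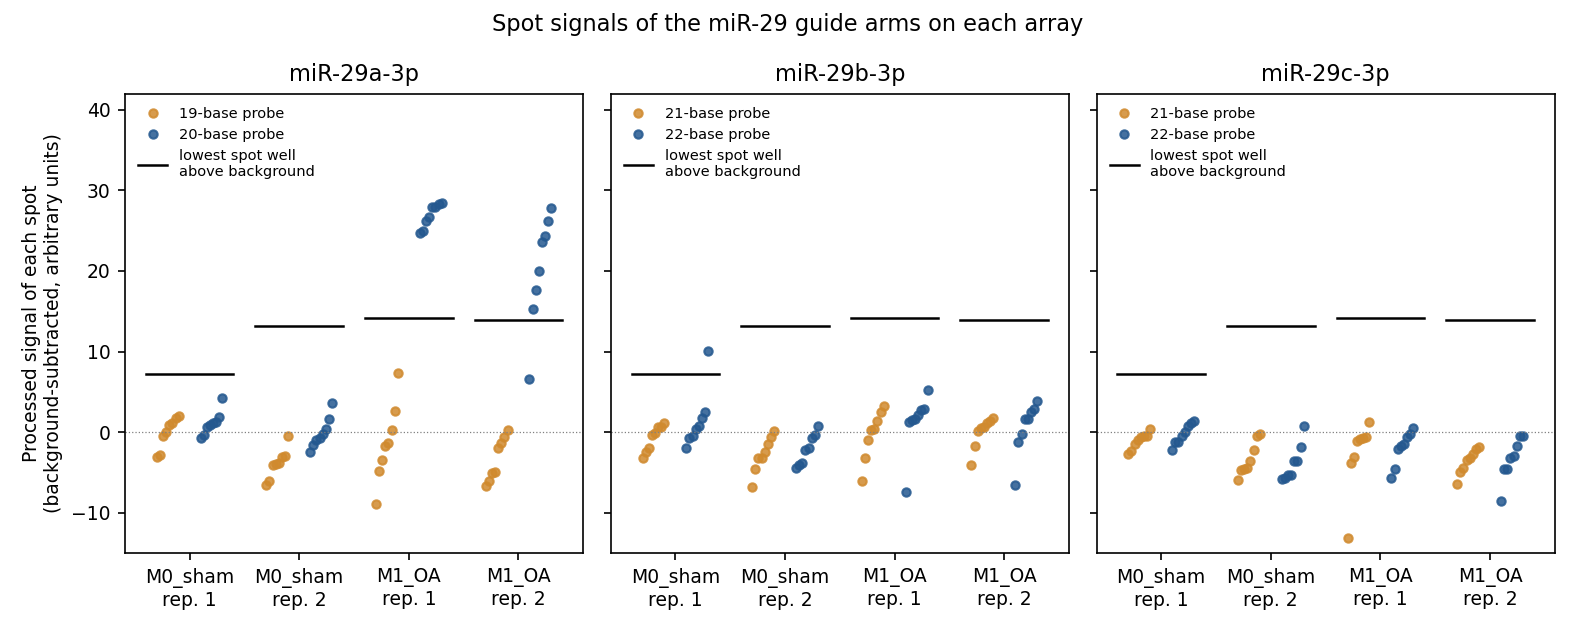
Processed signal of every spot (vertical axis, arbitrary units, background-subtracted) of the 3 miR-29 guide arms on the 4 arrays, with the shorter probe in orange, the longer in blue and a black line at the lowest spot of each array that was well above background. The 20-base miR-29a-3p probe stands above the line with 8 of 8 spots on M1_OA replicate 1 and 7 of 8 on replicate 2, while the other probes lie around 0 on all arrays.

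miR-29b-3p had summed signals of -0.380 and -4.86 on the M0_sham arrays and 1.97 and -0.390 on the M1_OA arrays. The 2 groups overlapped, and the means of its 2 probes stayed between -2.76 and 1.25. Of its 64 spots over the 4 arrays 1 was well above background, a spot of 10.0 on M0_sham replicate 1 that the software had marked as an outlier. miR-29c-3p had summed signals of -1.07 and -7.05 on the M0_sham arrays and -4.90 and -6.13 on the M1_OA arrays. Its M1_OA values lay between the M0_sham values, its probe means stayed between -3.79 and 0.153, and 0 of its 64 spots were well above background. The 2 miR-29c-3p probes thus stayed at background on the M1_OA arrays, where the 20-base miR-29a-3p probe did not, although they can pair with all but 1 base of their length to miR-29a-3p. Neither miR-29b-3p nor miR-29c-3p was tested, because neither was well above background on any array. That they were not well above background does not show that the vesicles lacked them: spots under about 7.26, 13.2, 14.1 and 13.9, the lowest well above background on M0_sham replicates 1 and 2 and M1_OA replicates 1 and 2, were not resolved, and probes of different sequence can bind with different strength.

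The other arms of the same hairpins also stayed at background on all 4 arrays. miR-29a-5p, miR-29b-1-5p, miR-29b-5p and miR-29c-5p, the passenger strands that are usually discarded, had probe means between -6.38 and 4.33. Among them 1 spot, of miR-29b-5p on M0_sham replicate 1, was well above background at 8.89, and it was marked as an outlier. By this flag 1 arm of the cluster on chromosome 4 was well above background and no arm of that on chromosome 13. What either cluster yielded to the vesicles is not shown by this.

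As background to these values, the arrays differed in how much they detected. The 2 M0_sham arrays had 23 and 13 miRNAs well above background, and the 2 M1_OA arrays had 42 and 45. Of the negative control spots, 9.68% and 0.461% were well above background on the M0_sham arrays and 22.1% and 6.68% on the M1_OA arrays. Over all miRNA spots the shares were 2.63% and 1.42% on the M0_sham arrays and 5.98% and 5.10% on the M1_OA arrays. The flag was thus more frequent among control spots on every array but M0_sham replicate 2. The highest median of any of the 7 negative control probes was 6.18 and 7.57 on the M0_sham arrays and 13.7 and 9.69 on the M1_OA arrays. On both M1_OA arrays the 20-base miR-29a-3p probe thus had a mean above every control probe's median. The control spots were themselves brighter on the M1_OA arrays, with median spots of 10.8 and 7.21 against 4.35 and 4.69. What part this has in the difference between the groups was not tested. Among macrophage and myeloid markers miR-21-5p, miR-146a-5p, miR-155-5p and miR-223-3p were well above background on both M1_OA arrays, miR-223-3p also on M0_sham replicate 1, and miR-142-3p and miR-142-5p on no array. Of the 6 stromal, 3 erythroid, 2 liver, 2 lymphocyte and 1 endothelial markers 0 were well above background on any array, and of 3 muscle markers 1 was, miR-206-3p on M1_OA replicate 2. All 4 arrays lay on 1 slide and were scanned in 2 sessions, 1 for each group, and the group cannot be told apart from the scan session.

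The comparison asks which vesicle miRNAs differ between inflammatory macrophages of OA rats and resting macrophages of sham rats. Arrays were brought to a common 75th percentile, taken over the 11 miRNAs that were well above background on every array. miR-29a-3p then had signals of 12.0 and 11.6 on the M1_OA arrays and 1.69 and -6.26 on the M0_sham arrays. The M0_sham values were set to a floor of 7.90, the lowest scaled signal of any miRNA well above background, and on the log2 scale the 4 values became 2.98 and 2.98 in M0_sham and 3.59 and 3.53 in M1_OA. On this floored scale miR-29a-3p was higher in M1_OA vesicles by a log2 difference of 0.58 ± 0.12 (SE, n = 2 against 2, 95% interval 0.23 to 0.93, limma adjusted p = 0.0252 over the 41 miRNAs tested). Of those 41, 22 passed as higher (53.7%) and 4 as lower (9.76%), so a call as higher was shared by most miRNAs tested. The median log2 difference of the 41 was 0.62. The place of miR-29a-3p among the 41 moved most with the floor: it ranked 23 as fitted, 15 with values under 1 set to 1 and 34 with each array's own detection limit as its floor. It also moved with other settings under the same floor rule, to 27 without scaling and to 20 with the 20-base probe alone. Counted without a model, 23 of the 41 (56.1%) had both M1_OA arrays above both M0_sham arrays. An exact two-sided permutation test of the 4 arrays gave p = 0.333, the smallest that this design allows.

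The size of the difference depended on the floor and on the scaling. Because both M0_sham values were at the floor, the p-value holds no spread of the M0_sham arrays, and the difference of 0.58 is the height of the M1_OA signal above the floor. miR-29a-3p was 1 of 24 miRNAs that entered the test through M1_OA with neither M0_sham array well above background, which by construction favours a higher M1_OA value. Of these 24, 19 passed as higher and 0 as lower, with a median log2 difference of 1.71, and 16 had both M0_sham values at the floor. Among the 11 miRNAs well above background in both groups, 2 passed as higher and 3 as lower. Without scaling the log2 difference of miR-29a-3p was 1.42 ± 0.29 (SE, limma adjusted p = 0.00756), among 32 of 41 (78%) called higher and a median of 1.96. Scaled to the labelling spike-ins, control RNAs that the array measures with its own spots, it was 1.75 (limma adjusted p = 0.00217), among 34 of 41 (82.9%) called higher and a median of 2.39.

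**Figure D2:**
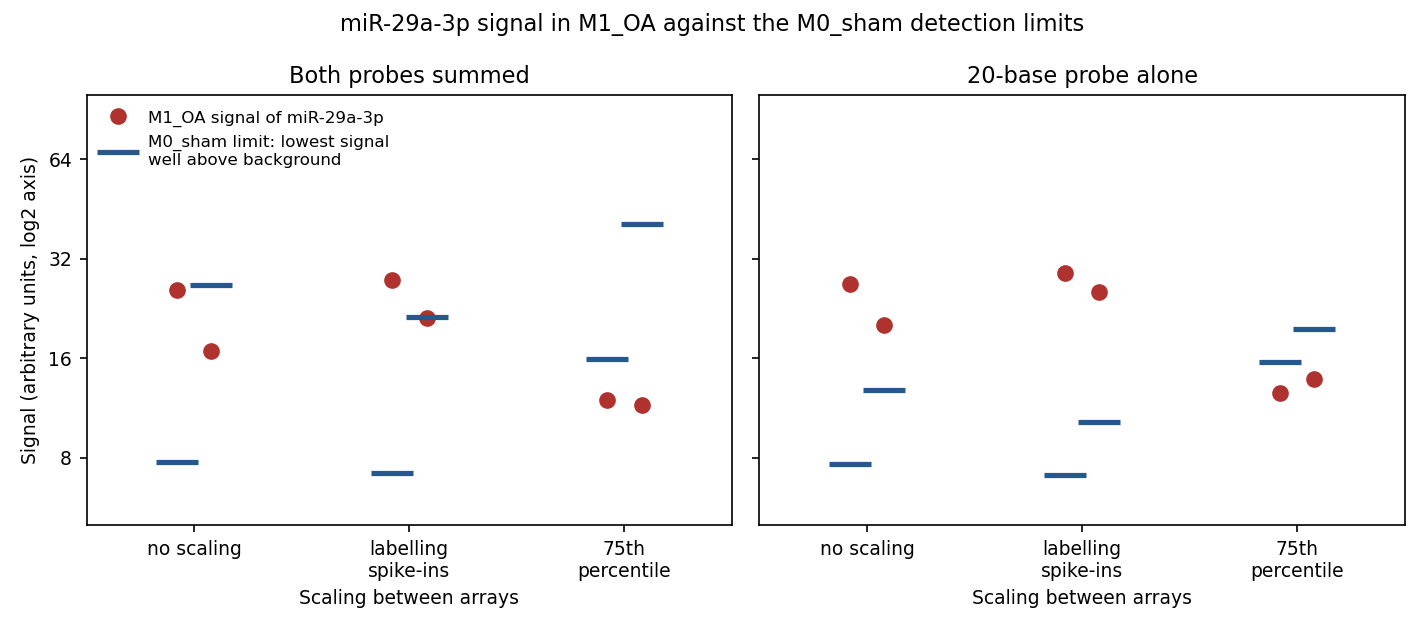
Signal of miR-29a-3p on M1_OA replicates 1 and 2 (red, left and right of each pair) and the lowest signal well above background on M0_sham replicates 1 and 2 (blue bars) under 3 scalings between arrays, on a log2 axis in arbitrary units, for the sum of both probes (left) and the 20-base probe (right). Without scaling the 20-base probe, at 26.9 and 20.2, lies above both M0_sham limits of 7.64 and 12.8, whereas with the 75th percentile every M1_OA point lies below both limits.

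An approximate lower bound of the fold change sets the M1_OA signal against a limit, each taken as a mean of log2 values. The limit is the lowest signal of any miRNA well above background on an M0_sham array. It is not strict, because a miRNA that is not well above background can exceed it. On M0_sham replicate 1 miR-328a-3p did so, at 8.11 without scaling. With the 75th percentile scaling that limit was 15.9 and 40.7 on M0_sham replicates 1 and 2, above the M1_OA signals of 12.0 and 11.6, and no fold can be given. Without scaling the limits were 7.78 and 26.7, and the approximate bound for miR-29a-3p was 1.44-fold higher in M1_OA vesicles. With the spike-ins this bound was 1.95-fold higher. The adjusted p-values above belong to the differences from the common floor, and the bounds themselves were not tested. M0_sham replicate 2, on which only 13 miRNAs were well above background, thus had a limit above both unscaled M1_OA signals. For the 20-base probe alone, chosen after the values were seen, the unscaled M0_sham limits were 7.64 and 12.8. Its approximate bound was 2.35-fold, or 3.18-fold with the spike-ins. With the 75th percentile the bound for this probe was also under 1.

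The authors' deposited table listed miR-29a-3p at log2 values of -1.64 and -1.93 on the M0_sham arrays and -0.41 and -0.46 on the M1_OA arrays, and both M1_OA values lay above both M0_sham values. Fitted in the same way on the same 41 miRNAs, the authors' deposited table gave a log2 difference of 1.35 (limma adjusted p = 0.0176), among 18 of 41 (43.9%) called higher and a median of 0.84. In the authors' deposited table miR-29b-3p and miR-29c-3p stood at its floor of -3.32 on all 4 arrays. The M0_sham values of miR-29a-3p in the authors' deposited table lay above that floor although the scanner files list the miRNA as not detected there. This held for 25 of 62 and 41 of 63 miRNAs above the floor on M0_sham replicates 1 and 2, and for 0 of 60 and 8 of 64 on the M1_OA arrays. Above the floor, 61 of 62 and 62 of 63 values of the authors' deposited table on the M0_sham arrays, and 58 of 60 and 64 of 64 on the M1_OA arrays, recur exactly in another column, so the columns draw on nearly 1 shared set of values. How the authors' deposited table was normalized between arrays is otherwise not given in the sources used here.

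The tested miRNAs whose pattern over the 4 arrays was most like that of miR-29a-3p were found by the root mean square difference of their floored log2 values after each miRNA's own mean was taken off. The nearest was miR-331-3p at 0.0938, with signals of -2.02 and -1.29 in M0_sham and 29.6 and 16.6 in M1_OA and a floored log2 difference of 0.67 (limma adjusted p = 0.0345). miR-328a-3p followed at 0.113, with signals of 8.11 and 12.9 in M0_sham and 56.4 and 42.3 in M1_OA and a log2 difference of 0.62 (limma adjusted p = 0.0396). Both resemble miR-29a-3p in being well above background on the M1_OA arrays alone, but miR-328a-3p lay above the floor on the M0_sham arrays. miR-27a-3p, an arm of the miR-23/24/27 cluster, came next at 0.152, with signals of -1.64 and -4.56 in M0_sham and 32.2 and 20.4 in M1_OA. miR-1224 at 0.277 and miR-30c-2-3p at 0.279 completed the 5, with log2 differences of 0.59 (limma adjusted p = 0.216) and 0.33 (limma adjusted p = 0.395) that did not pass. Likeness over 4 arrays, with floored values shared, describes these arrays and nothing more.

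**Figure D3:**
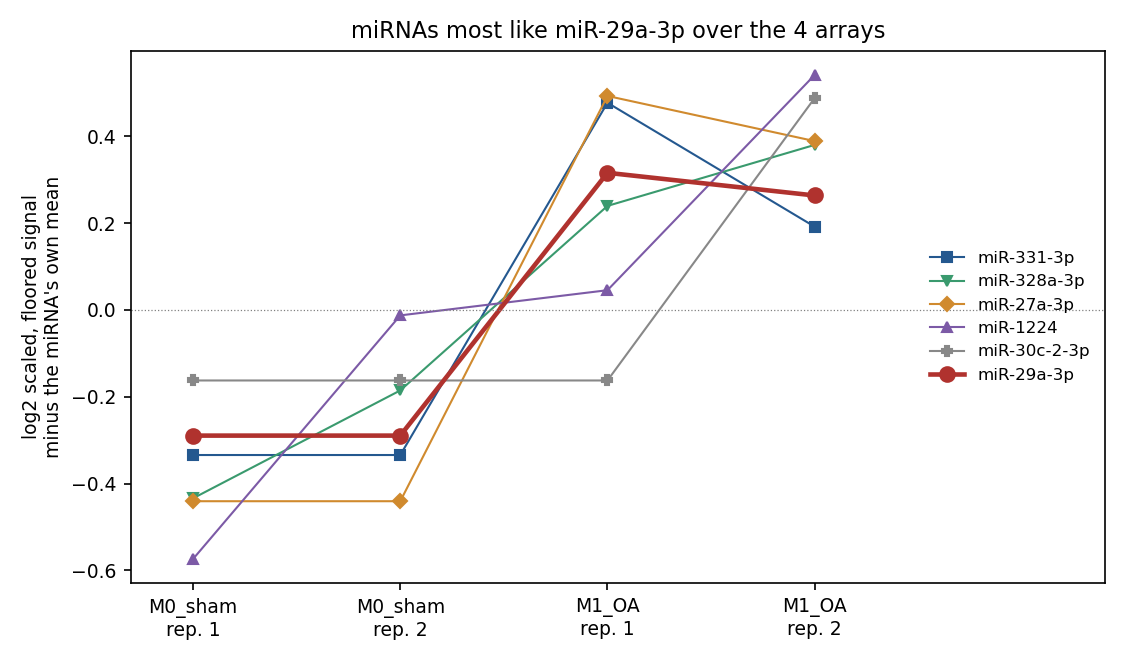
Scaled and floored log2 signal minus each miRNA's own mean (vertical axis) on the 4 arrays for miR-29a-3p (thick red line) and the 5 tested miRNAs most like it; points are single arrays and lines only join the points of 1 miRNA. miR-29a-3p, miR-331-3p and miR-27a-3p share a flat M0_sham stretch, where both arrays are at the floor, and higher values on both M1_OA arrays.

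Other miRNAs linked to extracellular matrix and fibrosis showed the same pattern of detection as miR-29a-3p where they were tested. Of 30 such miRNAs on the array, a list without the miR-29 arms, 6 were well above background on at least 1 array and 4 were tested. Of all 758 miRNAs on the array, 55 were well above background on at least 1 array and 41 were tested. All 4 tested miRNAs of the list passed as higher and 0 as lower, with a median log2 difference of 2.59. All 4 entered the test through M1_OA alone and had both M0_sham values at the floor. They are to be read against the 16 tested miRNAs with both M0_sham values at the floor, which include these 4. Of those 16, all but miR-30c-2-3p passed as higher, so such a call is close to fixed by the floor. The 16 belong to the 24 miRNAs that entered through M1_OA alone. Of these 24, 19 passed as higher and 0 as lower, with a median of 1.71. The 53.7% and 0.62 of all 41 are not the background for them. Each difference is the height of that miRNA's M1_OA signal above the floor, so differences are not ranked between miRNAs here. miR-21-5p, which is known to promote fibrosis and is induced in inflammation, had signals of 3.10 and 0.122 in M0_sham and 387 and 320 in M1_OA. Its approximate bound with scaling was 7.85-fold higher (limma adjusted p = 0.00102 for the floored difference of 4.66). miR-34a-5p, a target of p53, had -1.54 and -5.81 in M0_sham and 122 and 92.1 in M1_OA, with an approximate bound of 2.36-fold higher (limma adjusted p = 0.00104 for the floored difference of 2.93). miR-155-5p, induced by LPS in macrophages, had -3.30 and -6.63 in M0_sham and 72.4 and 60.3 in M1_OA, with an approximate bound of 1.47-fold higher (limma adjusted p = 0.00207 for the floored difference of 2.25). For miR-27a-3p, signals above, the floored difference was 0.88 (limma adjusted p = 0.00903), and as for miR-29a-3p its bound with scaling was under 1, so no fold can be given. The other 2 detected, let-7d-5p and miR-30d-5p, were well above background on M1_OA replicate 1 alone and were not tested. In these 4 as in miR-29a-3p neither M0_sham array was well above background, and the M1_OA signals did not overlap the M0_sham signals.

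**Figure D4:**
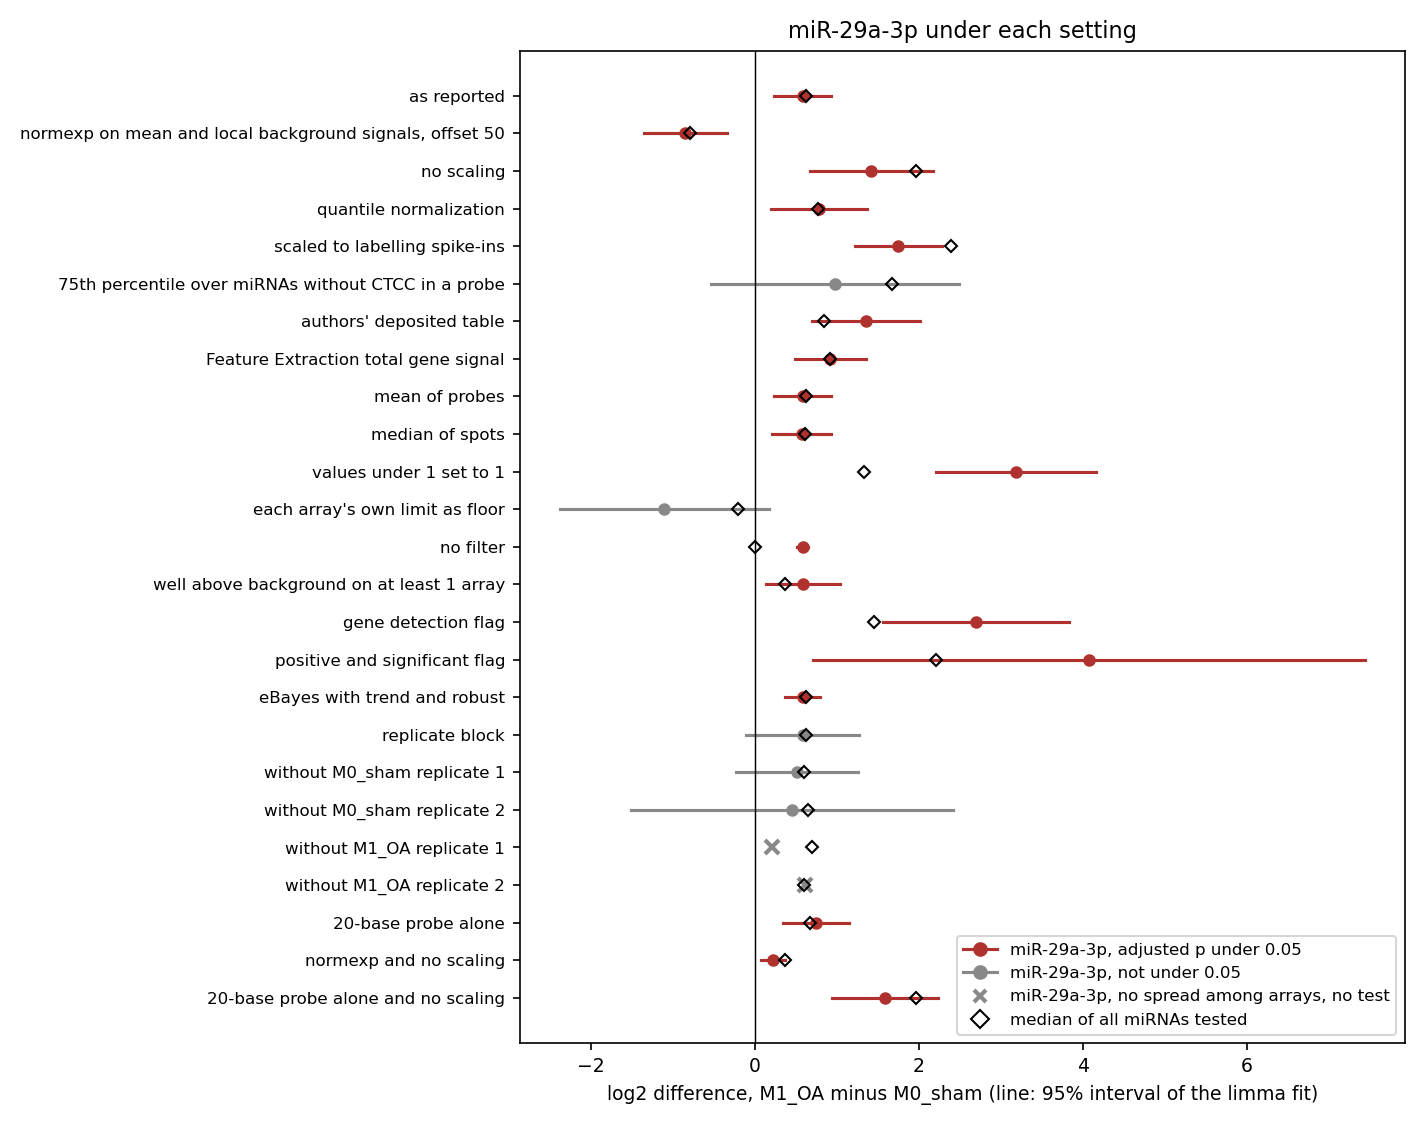
Log2 difference of miR-29a-3p, M1_OA minus M0_sham (horizontal axis), under each processing setting, with the 95% interval of the limma fit as a line and the median of all miRNAs tested as an open diamond. The value of 0.58 as reported lies beside the median of 0.62, and the normexp background correction, an alternative to the processed signal, moves both below 0, to -0.85 and -0.79.

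As the plot of processing settings shows, the call of miR-29a-3p ended or turned under several of them. Without M0_sham replicate 1 the log2 difference was 0.51 (limma adjusted p = 0.165) and without M0_sham replicate 2 it was 0.45 (limma adjusted p = 0.405), so the call ended without either of the M0_sham arrays. With normexp, which adds an offset to every signal, and the same scaling, the difference turned to -0.85 (limma adjusted p = 0.00294), and the median of the 41 to -0.79. The normexp sums before scaling were 114 and 114 in M0_sham and 149 and 141 in M1_OA, still without overlap and higher in M1_OA, so the direction turned with the scaling of the offset values. With normexp and no scaling the difference was 0.22 (limma adjusted p = 0.0218).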

How the data were processed

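The deposited scanner files give spot by spot the intensity written by Agilent Feature Extraction (10.7.1.1, per the submitters' processing notes). Processed intensity was, per the file headers, background-subtracted and not scaled between arrays, outlier spots were marked, and detection flags of 0 or 1 were added. The authors also deposited a table of log2 values with a floor of -3.32. Per the labels' protocols, 0.2 µg RNA was labelled with Cy3. For each array, unmarked spots were averaged per probe, probes of a miRNA summed, sums scaled to their 75th percentile over 11 miRNAs (those well above background on every array), and floored at 7.90 before log2. limma 3.58.1 in R 4.3.3 was run on 41 miRNAs, those that either group showed well above background on both of its arrays (lmFit, default eBayes, two-sided, Benjamini-Hochberg over the 41, threshold 0.05). No list was tested as a set. The fit was tested on simulated data, and no result given here rests on that test. Named miRNAs were the members, the other arms of their hairpins, every tested miRNA of a matrix and fibrosis list, and the 5 most like miR-29a-3p; members and lists were chosen with earlier results of these data known. Alternatives covered background correction, scaling, floor, filter, detection call, probe and spot summary, variance prior, replicate numbers and each array left out. The number of arrays limits the precision. Figures used matplotlib 3.10.9.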

Additional observations from a re-analysis of the deposited data

How the results depend on the processing

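Of 24 alternatives for miR-29a-3p, 18 kept its direction and its side of the threshold, 4 kept the direction but not the call, and 2 turned it, over log2 differences from -1.11 to 4.07. The mean of probes is among the 18 by construction, since it gives the identical value. Also counted among the 18 are both fits without an M1_OA array, whose p says nothing, as given below. So are 2 settings that were not planned, normexp without scaling and the 20-base probe without scaling. The 19-base probe alone is not among the 24: it left every array at the floor, with a difference of 0, and ended the call. With both probes summed, the difference turned to -0.85 with normexp (limma adjusted p = 0.00294). It turned to -1.11 with each array's own detection limit as its floor (limma adjusted p = 0.230), where M0_sham limits replace the M0_sham values. The call ended with the percentile over miRNAs without CTCC in a probe (0.97, limma adjusted p = 0.262) and without either M0_sham array (0.51 and 0.45); leaving out 1 array gave 0.21 to 0.61 (limma adjusted p up to 0.405), and without an M1_OA array both M0_sham values are at the floor, so no spread is left and the p says nothing. With the replicate block it was 0.58 (limma adjusted p = 0.123); same-numbered deviations correlated with r = 0.31 over 41 miRNAs, but 2 pairs cannot show that numbers pair samples. The 18 include no filter, where most of the 758 miRNAs are at the floor on all arrays and the shared variance is not reliable. With every spot required, miR-29a-3p was well above background on 1 array in place of 2 and was not tested. miR-29b-3p and miR-29c-3p had 0 calls throughout. The log2 lower bound, -1.11 with scaling, was 0.53 unscaled and 0.97 with spike-ins, and for the 20-base probe, added after the data were seen, -0.40 scaled, 1.23 unscaled and 1.67 with spike-ins.

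Of all miRNAs tested, 22 were called higher; this was 4 with normexp, 34 with spike-ins, 4 with the own-limit floor, 11 with no filter, 41 with the positive and significant flag, and 13 to 21 leaving out 1 array. The 4 called lower became 25 with normexp, 0 unscaled, with spike-ins or without CTCC probes, 2 with the total gene signal or the own-limit floor, 8 with detection on at least 1 array, 7 with the gene flag or the replicate block, 16 with the positive and significant flag, and 0 to 9 leaving out 1 array. Causes were not tested. The 75th percentile over all miRNAs was below 0 on every array and was not run as a scaling. Signals near the arrays' limits are not resolved, and M0_sham replicate 2 has the highest limit.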
